A study of Mus musculus with 2 samples.

Results

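Cells with RNA of Trem2, a lipid-sensing surface receptor, and of Gpnmb, a transmembrane glycoprotein of lysosome-rich macrophages, that met a rule for scar-associated macrophages made up 563 of 6132 cells (9.18%, exact binomial 95% interval 8.47 to 9.93) from a fibrotic mouse liver and 19 of 7471 cells (0.254%, 0.153 to 0.397) from a normal one. Of the 563, 386 (6.29% of cells, 5.70 to 6.93) held little RNA of other lineages. They were chosen from single-cell RNA-seq of liver nonparenchymal cells (NPCs) by their own counts of molecules (unique molecular identifiers, UMIs). A cell was a member if it had at least 3 UMIs of Trem2 and Gpnmb together and at least 1 of Csf1r, the receptor for the macrophage growth factor CSF1. It also had to hold under 20 UMIs per 10000 of Clec4f, Vsig4 and Cd5l, which mark Kupffer cells, the resident macrophages of the liver, at most 2 UMIs of Lrat and Reln (stellate cells) and at most 1 of Cd79a and Cd3e (B and T cells). In all, 582 of 13603 cells were members, and in the fibrotic liver they were 21.3% of the cells with a Csf1r UMI. When the rule was applied to cells thinned to 2000 UMIs, the shares were 4.53% and 0.0652%.

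Both mice were C57BL/6 males aged 8 weeks, and each received intraperitoneal injections 2 times a week for 6 weeks. The normal mouse was given olive oil alone. The fibrosis mouse was given carbon tetrachloride (CCl4), which injures the centre of the liver lobule, at 15% in olive oil and 0.6 µl per g of body weight, and its cells were taken 48 h after the last dose. Each mouse gave 1 library, so every difference between the conditions is a difference between 2 mice with no biological replicate, no test was made, and all intervals printed are 95% intervals of counting error alone.

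Monocytes from the blood enter an injured liver and can take on macrophage states beside the resident Kupffer cells. Macrophages with high Trem2, Spp1, Cd9 and Lgals3 have been described along scar tissue in liver and in fatty tissue, where they take up lipid and cell debris and carry many lysosomes. Trem2 signals through the adaptor Tyrobp, and Gpnmb is a target of the MiT/TFE factors that also drive lysosomal genes through the short promoter element CACGTG.

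The libraries held 8130 cells (median 4144.5 UMIs) from the normal and 6437 cells (median 5619) from the fibrosis mouse. Cells with at least 10% mitochondrial UMIs or with 200 genes or fewer were left out, which removed 659 and 305 cells. The members were compared with 636 Kupffer cells, which met the limits on Csf1r and on stellate, B and T cell genes and held 20 per 10000 or more of the Kupffer genes, with no limit on Trem2 and Gpnmb, and with 37 monocytes, which had at least 3 UMIs of the monocyte gene Ly6c2 and under 3 of Trem2 and Gpnmb. Lymphoid cells with no Csf1r UMI (253 in fibrosis, 745 in normal) served as the measure of RNA from other cells in a droplet. Hepatocytes had been spun out and a density gradient run, so all shares are of the cells recovered. The 2 libraries shared 15 cell barcodes, of which 2 were fibrosis members and 0 were normal members.

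RNA of other lineages was present in a part of the members, and it bears on every value that follows. Of 563 fibrosis members, 148 held over 20 UMIs per 10000 of the marker list of liver sinusoidal endothelial cells (LSECs), 22 of the mesenchymal list, and 14 and 11 held over 3 per 10000 of the cholangiocyte and the mesothelial list. Leaving out every member over any limit for another lineage, an alternative chosen after the data were seen, left 386 fibrosis and 15 normal members. LSEC genes summed to 32.95 (32.6 to 33.3) per 10000 in all fibrosis members, 5.61 (5.42 to 5.81) in these 386, 21.7 (21.3 to 22.1) in Kupffer cells and 33.8 (32.6 to 34.9) in lymphoid cells. The 14 cells with cholangiocyte RNA held 21.7% of all Spp1 UMIs of the members, a gene that duct cells are known to make. The other 177 members go against the macrophage label in part, with 80 of them at 0 UMIs of the macrophage gene Cd68, against 24 of the 386. Values in what follows are for the 386 cells unless all 563 are named, and a call against Kupffer cells that is named below and was lost in all 563 is given as such. The Kupffer cells were not held to these limits, and an alternative chosen after the data were seen used the 302 of the 636 Kupffer cells that met them (median 11731.5 UMIs).

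The minimum of the rule was also met by some cells of other types in the fibrosis library. At least 3 UMIs of both genes together were found in 16 of 253 fibrosis lymphoid cells (6.32%) and 166 of 1674 fibrosis endothelial cells without Csf1r (9.92%), against 0 of 745 and 0 of 2766 such cells of the normal mouse, where 3 counts of the total as the limit for a count of 0 allow shares of up to 0.403% and 0.108%. Just inside the limit, the 106 fibrosis members with exactly 3 UMIs had a median of 77.6 LSEC UMIs per 10000 and 3.18 of Lyz2 (lysozyme), and the 49 with 4 had 13.3 and 13.5. Just outside it, 210 cells with 2 UMIs had medians of 45.2 and 2.80. At the Kupffer limit, 16 members between 15 and 20 per 10000 of the Kupffer genes had a median Lyz2 of 55.0 per 10000 and 15 cells between 20 and 25 had 26.2, so this limit passes through a sparse stretch. Of 806 fibrosis cells with 3 or more Trem2 and Gpnmb UMIs that met all other limits, 563 lay under it and 243 above it.

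The label was checked against macrophage genes, which the rule had not used apart from Csf1r. The macrophage list (12 genes, among them Adgre1, Cd68, Mertk, C1qa and Lyz2) summed to 198 (197 to 199) UMIs per 10000 in the 386 cells, 151 (150.1 to 152) in all 563, 165 (164 to 166) in Kupffer cells, 90.1 (86.5 to 93.9) in monocytes and 14.97 (14.2 to 15.7) in lymphoid cells. The Kupffer list summed to 21.2 in the 386 cells, next to 22.1 in lymphoid cells and 174 in Kupffer cells. It includes Clec4f, Vsig4 and Cd5l, which the rule holds low in the members and high in the Kupffer cells. This sum therefore does not check the label, and the Kupffer genes outside the rule are given below. The neutrophil list stood at 1.47 in the 386 cells and at 53.3 in the 37 monocytes, so values against the monocytes carry neutrophil granule RNA on the monocyte side, and its part in them was not tested. The higher sum of the 386 members rested on Lyz2. Without Lyz2 and the rule's Csf1r, the other 10 genes summed to 92.02 (91.2 to 92.8) in the 386 members and 120 (119 to 121) in Kupffer cells. Of the 11 genes outside the rule, Cd14, Lyz2 and Ms4a7 were at least 2 times above Kupffer cells and the median ratio was 0.936, while in all 563 members only Lyz2 was and C1qa and C1qc were at most 0.5 times.

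The 2 genes of the rule are described first, with no comparison drawn from them. Trem2 (chr17:48346401-48354147, plus strand, GRCm38) was measured at 9.49 (9.23 to 9.74) per 10000 UMIs among the 386 fibrosis members, with a lowest, median and highest cell at 0, 8.22 and 21.6. Gpnmb (chr6:49036546-49070929, plus strand) stood at 39.8 (39.2 to 40.3), with 0, 17.7 and 207. Per cell, Gpnmb therefore spread over a far wider range than Trem2. Both genes had a UMI in 364 of the 386 cells (94.3%), and in 496 of all 563 (88.1%).

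Normal members met the rule mostly through Trem2. Of the 19 cells, 14 held Trem2 without Gpnmb, 2 held Gpnmb alone and 3 held both. Trem2 stood at 4.23 (3.19 to 5.51) and Gpnmb at 4.62 (3.52 to 5.94) in the 15 normal members within the limits, where Gpnmb was at 0 in 11 cells. In normal Kupffer cells Gpnmb was seen as 1 UMI in 1 of 402 cells, while Trem2 had a UMI in 87 of them.

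Kupffer cells of the fibrotic liver held both genes as well. At least 3 UMIs of the pair were found in 243 of 636 (38.2%, 34.4 to 42.1) fibrosis and 13 of 402 (3.23%, 1.73 to 5.47) normal Kupffer cells. These 243 cells had a median of 12883 UMIs, against 12305 in the 386 members and 2177 in the other 393 Kupffer cells, and they serve below as a second comparison of similar median depth, though single cells ran from 916 to 66683 UMIs there and from 3416 to 71201 in the members. Their Trem2 level was 7.46 and their Gpnmb level 20.8 per 10000.

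Of the markers that the rule did not use, Spp1, Lgals3 and Cd9 were all higher in the members than in either other group. Spp1 (osteopontin, a secreted matrix glycoprotein, chr5:104435118-104441050, plus strand) stood at 26.7 (26.3 to 27.1) UMIs per 10000 in the 386 members, 4.92 (4.73 to 5.11) in Kupffer cells, 1.47 (1.04 to 2.02) in monocytes and 1.79 (1.55 to 2.07) in lymphoid cells. That was 5.43 (5.22 to 5.66) times the Kupffer level. Lgals3 (galectin-3, a sugar-binding protein of activated macrophages, chr14:47367751-47386160, plus strand) stood at 39.2 (38.7 to 39.7), 12.8 (12.5 to 13.1), 6.24 (5.32 to 7.29) and 1.13 (0.933 to 1.35) in the same order, 3.06 (2.98 to 3.15) times the Kupffer level. Cd9 (a tetraspanin of the cell surface, chr6:125460266-125494791, minus strand) stood at 3.65 (3.5 to 3.81), 1.68 (1.58 to 1.8), 1.55 (1.11 to 2.11) and 0.945 (0.768 to 1.15), 2.17 (2.01 to 2.35) times. The intervals cover counting error of summed UMIs alone, and single cells of the 2 groups overlapped. From the first to the third quartile, Cd9 ran from 0.776 to 4.49 in the members and from 0 to 1.87 in Kupffer cells. From the lowest to the highest cell, Spp1 ran from 0 to 300 and from 0 to 336, and Lgals3 from 0 to 196 and from 0 to 133.

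**Figure D1:**
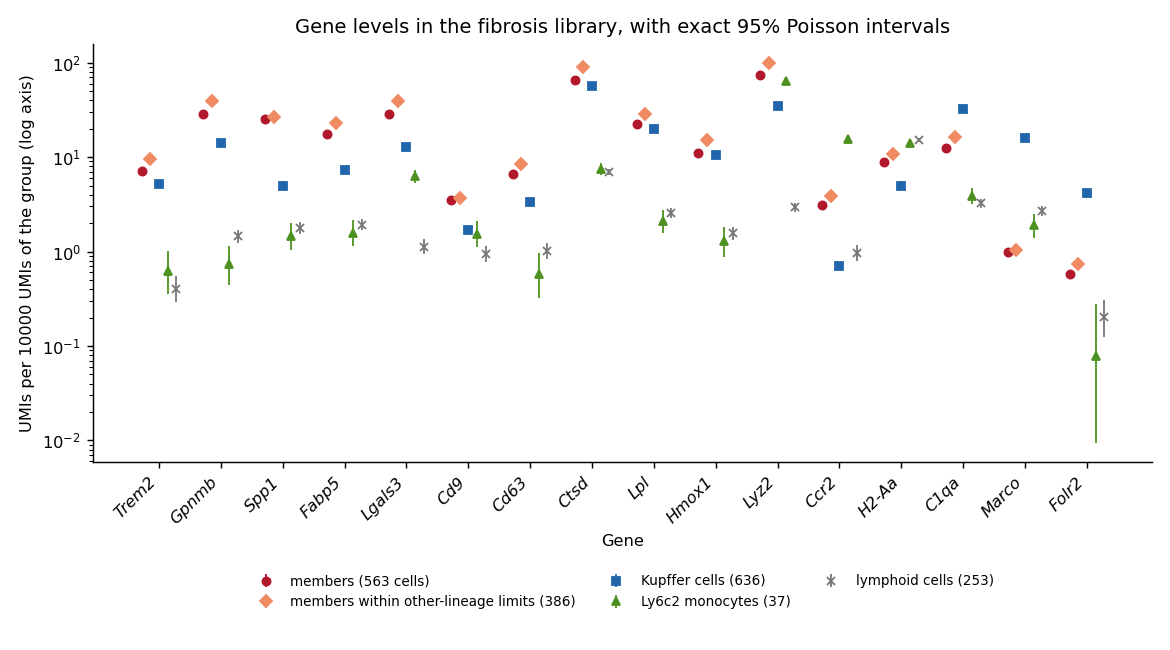
Levels of 16 genes in the fibrosis library, in UMIs per 10000 UMIs of the group on a log axis, for all 563 members, the 386 within the limits for other lineages, 636 Kupffer cells, 37 Ly6c2 monocytes and 253 lymphoid cells, with exact 95% Poisson intervals as bars. Spp1, Fabp5, Lgals3 and Cd9 lie highest in the members, Ccr2 in the monocytes and Marco in the Kupffer cells.

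The share of cells with a UMI was also highest in the members for Lgals3 and Spp1 after each cell was thinned to 2000 UMIs. Lgals3 was found in 84.2% (80.2 to 87.7) of the 386 members, 57.3% of 445 Kupffer cells, 50% of 36 monocytes and 22.4% of 210 lymphoid cells, and before thinning in 96.1%, 70.9%, 78.4% and 33.99%. Spp1 was found in 60.4% (55.3 to 65.3) of members and 34.8% (28.3 to 41.6) of lymphoid cells after thinning, which left out 0 of 386 members and 43 of 253 lymphoid cells. Lymphoid cells stand here for cells that should hold little of these genes, so a single Spp1 UMI does not mark expression in this library. Mmp12 was found in 28.5% of members and 36.2% of lymphoid cells, so its share in the members is at the background. Median depths before thinning were 12305 UMIs in the members and 2531 in the lymphoid cells.

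By the rule for named genes, the 10 genes furthest above the higher of Kupffer cells and monocytes in all 563 members included Spp1, Clec4d, Clu, Itga6, Syngr1, Fam20c, Emp1, Fabp5 and Adam8, at 5.13 to 2.33 times. In the 386 cells, F7 (coagulation factor VII, 8.53 times) entered this list and Clu (clusterin, a secreted chaperone) left it, since Clu stood at 7.45 (7.27 to 7.64) in all 563 members but at 0.784 (0.712 to 0.86) in the 386, below the 1.66 (1.56 to 1.78) of Kupffer cells. Clec4d is a C-type lectin of myeloid cells that binds mycobacterial glycolipid, and it stood at 1.52 (1.42 to 1.63) in the 386 members, 0.255 (0.215 to 0.301) in Kupffer cells and 0.0388 (0.000982 to 0.216) in monocytes. Itga6, the laminin-binding integrin alpha 6, stood at 2.66 (2.53 to 2.8), 0.609 (0.546 to 0.678) and 0.582 (0.326 to 0.959). Syngr1, a vesicle membrane protein, stood at 2.5 (2.37 to 2.63), 0.545 (0.485 to 0.611) and 0.0388 (0.000982 to 0.216), and the kinase of secreted proteins Fam20c at 1.67, 0.33 and 0.427. Among the genes furthest below both groups were Ltf and Camp, granule proteins of neutrophils, at 0.00709 and 0.0106 in the 386 members. Kupffer cells held only 0.0237 and 0.0401, and the genes passed the minimum through the monocytes alone, at 4.27 and 9.42. Camp is also in the neutrophil list, which the limits select against. In the 386 cells endothelial genes such as Cdh5 and Stab2 were also among them, which the limits themselves select against.

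Among the genes that reached 1 UMI per 10000 in one of the groups compared, 84 of 2052 (4.09%) were at least 2 times higher and 174 (8.48%) at most 0.5 times in the 386 members against Kupffer cells. For all 563 members the shares were 2.38% and 4.61%. Against monocytes, 224 of 2420 genes (9.26%) were higher and 428 (17.7%) lower in the 386 cells, and 6.98% and 10.7% of genes in all 563. Against the 243 Kupffer cells with 3 or more UMIs of the pair, 54 of 1981 (2.73%) were higher and 124 (6.26%) lower, and against the 302 within the limits 73 of 1971 (3.7%) and 122 (6.19%). The members were selected from these same counts, so these shares are the background for the lists and carry no test.

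The list of genes of scar-associated and lipid-associated macrophages (20 genes, of which the 18 outside the rule passed the minimum) was for the most part higher in the members. In the 386 members, 11 of 18 were at least 2 times higher and 0 at most 0.5 times, with a median ratio of 2.34 where that of all genes was 0.96, and in all 563 members 10 of 18 were. Against the 243 Kupffer cells the count was 8 of 18, with a median of 1.89, and against the 302 it was 11 of 18, with a median of 2.19. Against monocytes it was 14 of 18, with S100a4 and S100a6, small calcium-binding proteins that monocytes hold, at most 0.5 times. The list was drawn up from published signatures of such cells and with earlier results of these data known, so its direction is not independent evidence.

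Fabp5, a carrier of fatty acids, had the largest ratio to Kupffer cells among the lipid genes over the minimum. It stood at 23.2 (22.8 to 23.6) in the 386 members, 7.23 (7.01 to 7.46) in Kupffer cells and 1.59 (1.14 to 2.16) in monocytes. Its lowest, median and highest member cell held 0, 5.31 and 161 per 10000. Plin2, a coat protein of lipid droplets, was at 8.62 (8.38 to 8.86) against 3.45 (3.29 to 3.6) and 1.63 (1.17 to 2.2). Of the 17 lipid genes over the minimum, only these 2 were at least 2 times above Kupffer cells in the 386 members, and Nr1h3 (the oxysterol receptor LXR alpha) was lower, at 1.89 against 4.31. Lpl (lipoprotein lipase) at 28.9 against 19.9 and Apoe (apolipoprotein E) at 195 against 125 were high in both macrophage groups. Against monocytes 11 of 16 lipid genes were higher and 0 lower, where 9.26% and 17.7% of all genes were. Lpl was at 13.8 and Apoe at 5.998 times.

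Lysosomal genes separated the members from monocytes but hardly from Kupffer cells. Of 21 lysosomal genes over the minimum, 16 were at least 2 times above monocytes and 0 below, with a median of 2.57 times where that of all genes was 0.82, and in all 563 members 11 of 21 were. Only Cd63 (a lysosomal tetraspanin) was at least 2 times above Kupffer cells, at 8.36 (8.13 to 8.61) against 3.33 (3.18 to 3.49), and against the 243 Kupffer cells 0 of 21 were. Ctsd (cathepsin D, the aspartic protease of lysosomes, chr7:142375911-142388038, minus strand) was at 89.1 (88.3 to 89.9) in the members, 57.2 (56.6 to 57.8) in Kupffer cells and 7.48 (6.47 to 8.62) in monocytes. Ctsb (cathepsin B) was at 123, 92.2 and 19.9, and Psap (prosaposin, the source of the sphingolipid activators) at 121, 63.5 and 58.3. Atp6v0d2, a subunit of the proton pump, was at 2.37 (2.25 to 2.5), 1.22 (1.13 to 1.31) and 0.0776 (0.00939 to 0.28).

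The promoters of these genes often held the element CACGTG, which is shown here because lysosomal genes were higher as a group than in monocytes. Of the 24 listed lysosomal genes, 17 had a RefSeq promoter window from 250 bases before to 50 after the start (GRCm38.p6). CACGTG, the same on both strands, was in 7 of these 17 (41.2%), namely Atp6v1a, Ctsa, Ctsd, Ctsl, Lamp1, Lgmn and Mcoln1, and in 2187 of all 27025 genes with a window (8.09%). The longer TCACGTGA, which contains it, was in 4 of 17 and in 304 of all (1.12%). The windows of Trem2 and Gpnmb do not contain these letters. Each match describes the letters in the window, not binding. The genes shown are cathepsin D, with 2 matches of which 1 is shown, the asparaginyl protease legumain (Lgmn), the membrane protein Lamp1, with 4 matches of which 1 is shown, and the proton pump subunit Atp6v1a, with CACGTG in capitals. They lie at chr7:142387908-142387937 (minus strand), chr12:102439124-102439153 (minus), chr8:13159088-13159117 (plus) and chr16:44139373-44139402 (minus). The capitals begin at positions -98, -49, -61 and -131 from the RefSeq start. For Ctsd the RefSeq start differs from that of the gene span printed above, and the match shown lies inside that span.
Ctsd: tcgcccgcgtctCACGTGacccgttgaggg
Lgmn: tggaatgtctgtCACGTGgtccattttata
Lamp1: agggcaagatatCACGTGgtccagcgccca
Atp6v1a: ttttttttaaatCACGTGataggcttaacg

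The 4 genes shown were chosen from the 7 with the letters. Of these 7, Mcoln1 was under the minimum and the other 6 were at least 2 times above monocytes in the 386 members, and so were 7 of the 9 lysosomal genes over the minimum whose windows lack the letters, where 9.26% of all genes were. In all 563 members Ctsa and Lamp1 (1.68 and 1.75 times) were not. The ratios were 11.9 for Ctsd, 2.93 for Lgmn, 2.08 for Lamp1 and 3.59 for Atp6v1a. Against Kupffer cells they were 1.56, 0.686, 1.19 and 1.35.

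Iron handling followed the same division. Of 7 iron and haem genes over the minimum, all 7 were at least 2 times above monocytes, where 9.26% of all genes were. Their median was 8.34 times. The ferritin chains Fth1 and Ftl1, which store iron, were at 195 (194 to 196) and 181 (179 to 182) in the members, 85.1 (84.3 to 85.8) and 79.4 (78.6 to 80.1) in Kupffer cells and 32.5 and 21.6 in monocytes. The iron exporter Slc40a1 (ferroportin), by contrast, stood at 4.78 (4.6 to 4.96) in the members and 20.3 (19.9 to 20.7) in Kupffer cells. Hmox1, which breaks down haem, was at 15.1, 10.6 and 1.28. The ferritin chains were not called in all 563 members, at 1.78 and 1.71 times. Against both the 243 and the 302 Kupffer cells 0 of 7 iron genes were at least 2 times higher, and Slc40a1 was lower in each of these comparisons.

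Marker genes of Kupffer cells were low in the members, beyond those of the rule. Of 11 such genes over the minimum that the rule had not used, 10 were at most 0.5 times the Kupffer level, where 8.48% of all genes were. Their median was 0.11. One of the 10 is Cdh5, an endothelial gene that the limits select against and that was not called in all 563 members, where 9 of 11 were. Marco (a scavenger receptor) stood at 1.03 (0.947 to 1.12) in the members, 15.9 (15.6 to 16.2) in Kupffer cells and 2.69 (2.38 to 3.03) in lymphoid cells. Timd4, a receptor for dying cells, stood at 0.0727 (0.0522 to 0.0986) against 1.89 (1.77 to 2.01), Cd163, the haemoglobin receptor, at 0.0763 (0.0552 to 0.103) against 2.09 (1.97 to 2.22), and the folate receptor Folr2 at 0.738 (0.669 to 0.812) against 4.16 (3.99 to 4.34). The list of complement and clearance genes was mixed. Of its 18 genes over the minimum, 5 (C3, Cd163, Marco, Mrc1 and Timd4) were at most 0.5 times and 2 (C3ar1 and Itgam) at least 2 times the Kupffer level, with a median of 0.637. In all 563 members 7 were lower and 1 higher, and against the 302 Kupffer cells 8 and 2 of 17. C1qb stood at 21.6 (21.2 to 21.96) against 23.04 (22.6 to 23.4), and C1qa and C1qc at 16.3 and 17.5 against 32.3 and 31.03. The ratios of C1qa and C1qc were 0.504 and 0.564 in the 386 members, 0.387 and 0.43 in all 563, and 0.475 and 0.527 against the 243 Kupffer cells, so these chains were lower under some comparisons. C3 itself was at 0.239 times in the 386 but 1.95 in all 563. C3ar1, the receptor for the complement fragment C3a, was at 5.22 (5.04 to 5.42) against 2.4 (2.27 to 2.53), but at 1.66 times in all 563 members and not called against the 302 Kupffer cells.

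Some monocyte genes stood above the Kupffer level in the members, but most were under the monocyte level. Of 5 over the minimum against Kupffer cells, Ccr2, Chil3 and Lyz2 were at least 2 times higher, where 4.09% of all genes were. Ccr2, the chemokine receptor that draws monocytes out of the marrow, stood at 3.85 (3.69 to 4.01) in the members, 0.7005 (0.632 to 0.774) in Kupffer cells, 15.4 (13.9 to 16.99) in monocytes and 0.974 (0.794 to 1.18) in lymphoid cells. Cx3cr1, the fractalkine receptor, which is not in the monocyte list, stood at 4.03 (3.87 to 4.2), 1.36 (1.27 to 1.47) and 1.98 (1.47 to 2.6). Plac8, a gene of Ly6c2 monocytes, stood at 0.963 (0.884 to 1.05), 1.51 (1.41 to 1.62) and 24.005 (22.2 to 25.97), and the coagulation subunit F13a1 at 0.926, 0.0784 and 5.31. Against monocytes, 10 of 11 monocyte genes over the minimum were at most 0.5 times in the members, where 17.7% of all genes were. Of the genes of interferon response, 0 of 6 differed by 2 times from Kupffer cells, where 4.09% of all genes were higher and 8.48% lower. Of 9 such genes, 5 were at most 0.5 times the monocyte level, where 17.7% of all genes were.

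In the Trem2 pathway, of 9 genes over the minimum that the rule had not used, Lat2 and Ms4a7 were at least 2 times above Kupffer cells and 0 were at most 0.5 times, so 2 of 9 were higher where 4.09% of all genes were. Lat2, an adaptor of immune receptors, stood at 1.82 (1.71 to 1.94) against 0.354 (0.306 to 0.407), and Ms4a7, a membrane protein of macrophages, at 5.2 (5.02 to 5.4) against 2.23 (2.11 to 2.36), with Ms4a7 at 1.74 times in all 563 members and not called against the 302 Kupffer cells. Tyrobp, the signalling partner of Trem2, stood at 20.4 (20.01 to 20.8), 13.99 (13.7 to 14.3) and 10.9 (9.7 to 12.3) in members, Kupffer cells and monocytes.

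Within the members, Trem2 and Gpnmb spread over a wide range, and the other genes were laid out along it. The 386 fibrosis members were placed in 6 bins by the UMIs of both genes per 10000 UMIs of the cell, under 4 (18 cells), 4 to 8 (59), 8 to 16 (58), 16 to 32 (78), 32 to 64 (110) and 64 or more (63). The bins use the rule's own counts, the cells are of 1 library, and median depth moved with the bins, at 12042, 8074, 8942.5, 11231.5, 14220 and 23684 UMIs. With a minimum of 3 UMIs, only deep cells can lie in the lowest bin, and the Spearman rho of the bins' measure with total UMIs was 0.618 over the 386 cells. The values are therefore a description without a test.

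The sum of the lysosomal genes was higher in every following bin. Ctsd was at 18.3, 26.5, 42.6, 68.5, 103 and 134 UMIs per 10000 from the lowest to the highest bin. The list of 24 lysosomal genes summed to 236 in the lowest and 698 in the highest bin. Fabp5 went from 1.95 (1.41 to 2.62) to 52.04 (50.9 to 53.2), Lgals3 from 6.88 (5.83 to 8.06) to 75.9 (74.5 to 77.3), Cd68 (a lysosomal membrane protein of macrophages) from 3.35 (2.63 to 4.2) to 14.4 (13.8 to 15.01) and Cd63 from 2.35 (1.76 to 3.09) to 14.5 (13.9 to 15.2). The iron and haem list went from 154 to 545, with Hmox1 from 4.8 to 23.2.

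Antigen presentation genes and Ccr2 ran the other way. H2-Aa, a chain of MHC class II, was at 38.1, 30.5, 23.9, 12.9, 4.1 and 2.49 per 10000 along the bins, and the antigen presentation list summed to 260.1 in the lowest and 72.4 in the highest. Ccr2 was at 8.78, 9.61, 8.85, 5.6, 1.93 and 0.554. Cx3cr1 peaked in the middle, at 2.58, 5.96, 7.16, 8.36, 3.07 and 0.983, and so did Apoe, at 37.7, 111, 198, 241, 229.5 and 176. The 12 Kupffer genes outside the rule summed to between 12.04 and 17.8 in all 6 bins. The 11 monocyte genes summed to 69.3, 107, 126, 108, 136 and 96.5, of which most was Lyz2, a gene of macrophages as well. Without Lyz2 the other 10 stood at 23.2, 32.8, 28.01, 17.9, 13.6 and 6.91, lower in every bin after the second. By the sums of the bins, members with little Trem2 and Gpnmb thus held more class II and Ccr2 RNA. Those with much held more lysosomal and ferritin RNA, while the Kupffer list showed no order. A set of 42 members high in Fn1, described below, differed, with a median of 6.29 per 10000 of both genes. It held 3.56 of H2-Aa and 3.10 of Ccr2, against 12.8 and 4.44 in the 322 members high in neither Fn1 nor Mmp12.

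**Figure D2:**
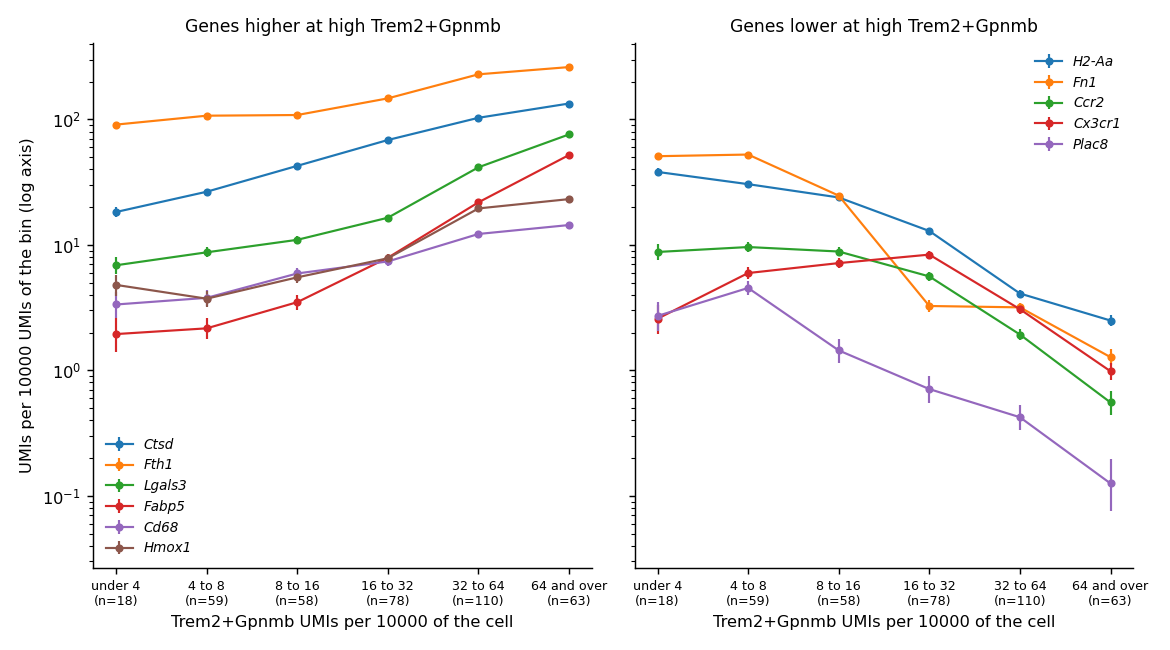
Levels of 11 genes in the 386 fibrosis members within the limits, in UMIs per 10000 UMIs of the bin on a log axis, against the Trem2 and Gpnmb UMIs per 10000 of the cell in 6 bins of 18 to 110 cells, with exact 95% Poisson intervals as bars. Ctsd, Cd68, Fabp5 and Lgals3 lie higher in the high bins, and H2-Aa, Ccr2 and Plac8 lie lower there.

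A similar order was seen in a narrower range of depth, where depth still moved with the bins. Among the 226 of the 386 members with 8000 to 20000 UMIs, a band chosen after the data were seen, median depth was 10362, 10964, 11915, 13102 and 15698.5 UMIs along 5 bins, with a rho of 0.366 for total UMIs. Ctsd went from 26.3 (24.9 to 27.7) per 10000 in 47 cells under 8 to 114 (111 to 118) in 20 cells at 64 or more. Fabp5 went from 1.88 to 36.01, Lgals3 from 8.19 to 58.4, H2-Aa from 35.2 to 2.96 and Ccr2 from 9.14 to 1.38. Mmp12 (macrophage elastase) did not keep its order, with 0.633 in the lowest and 23.6 in the highest of the 6 bins of all 386 cells, but 1.99, 3.57, 2.29, 6.55 and 3.25 in the band.

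Spp1 had no simple order, at 14.8, 27.4, 15.1, 7.48, 22.01 and 50.1 per 10000 along the 6 bins, and it was held by few cells. Its lowest, median and highest member held 0, 4.94 and 300 per 10000. The 39 cells with most Spp1 held 63.0% of its UMIs in the 386 cells. The same share was 91.4% for Fn1 (fibronectin) and 87.6% for Mmp12, but 36.3% for Ctsd. Fn1 and Mmp12 were therefore used to split the members, at 20 UMIs per 10000 of either gene, a split chosen after these values were seen.

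A set of 42 members (10.9%, 7.96 to 14.4) held at least 20 UMIs per 10000 of Fn1. Few cells lay near this limit, with 326 members under 5 per 10000, 11 from 5 to 10, 7 from 10 to 20, 7 from 20 to 40 and 35 above. Fn1 stood at 118 (115 to 121) in these cells and 1.04 (0.945 to 1.14) in the 322 members high in neither gene. The 42 cells held 2845 of the 15063 Spp1 UMIs of the 386 members.

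A further set of genes, named here after their values were seen, was higher in the summed UMIs of the Fn1-high cells than in the members high in neither gene. Saa3, an acute-phase protein of macrophages, stood at 24.5 (23.1 to 25.9) against 0.444 (0.384 to 0.51), the protease inhibitor Slpi at 12.8 (11.9 to 13.9) against 0.172 (0.136 to 0.215), and coagulation factor X (F10) at 3.8 (3.28 to 4.38) against 0.194 (0.155 to 0.239). Part of the cells held these UMIs, since Saa3 was at 0 in 17, Slpi in 22 and F10 in 7 of the 42 cells. The integrin Itgam stood at 10.2 (9.31 to 11.1) against 1.58 (1.47 to 1.7), and the chemokines Ccl6 and Ccl9 at 27.5 and 19.3 against 4.67 and 2.36, and these were at 0 in 3, 1 and 1 cells. The neutrophil gene S100a8 stood at 0.362 (0.214 to 0.572) against 0.0959 (0.0694 to 0.129), after the limits had left out cells high in neutrophil genes. Markers of mature macrophages were lower there, Ms4a7 at 0.563 (0.374 to 0.814) against 6.07 (5.85 to 6.3), C1qb at 7.18 against 22.9 and Apoe at 79.1 against 217.

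The summed levels of Spp1 and Cd9 were highest in the Fn1-high set, whereas Trem2 and Gpnmb were lowest there. Spp1 stood at 57.2 (55.1 to 59.3) in the Fn1-high, 28.7 (27.4 to 30.05) in the Mmp12-high and 23.04 (22.6 to 23.5) in the other members, and Cd9 at 9.85 (8.999 to 10.8), 5.74 (5.17 to 6.34) and 2.66 (2.51 to 2.82). The median cell held 12.2, 15.7 and 4.30 per 10000 of Spp1, so by the median cell the Mmp12-high set was highest, and 10.1, 4.79 and 1.69 of Cd9. Csf1r, also a gene of the rule, stood at 6.21, 4.96 and 8.02. The median Trem2 and Gpnmb level was 6.29 per 10000 in the Fn1-high cells, 97.7 in the Mmp12-high and 29.7 in the others. Median depths of the 3 sets were 9067, 27310 and 12210.5 UMIs.

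Once the Fn1-high cells were set aside, Spp1 was higher in every following bin. Over the remaining 10, 39, 52, 75, 106 and 62 cells it was at 1.61 (1.01 to 2.43), 2.48 (1.97 to 3.07), 3.94 (3.42 to 4.53), 7.23 (6.67 to 7.82), 22.4 (21.7 to 23.1) and 48.6 (47.5 to 49.7) per 10000. The lowest bins therefore had Spp1 mainly through Fn1-high cells, and the highest without them. From the lowest to the highest bin Cd9 went from 1.09 to 4.63, Lpl from 5.69 to 49.2, with 4.21 in the bin between 4 and 8, and Fth1 from 39.99 to 258, while H2-Aa went from 57.9 to 2.54 and Ccr2 from 13.4 to 0.564.

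The 22 Mmp12-high cells without high Fn1 (5.70%, 3.61 to 8.50) had the highest sum of the 24 lysosomal genes, at 716 (709 to 722) per 10000, against 401 (395 to 406) in the Fn1-high and 531 (529 to 533) in the other members. The median cell held 706, 315 and 509 in the same order, and single cells overlapped, from 518 to 1218, 104 to 877 and 50.9 to 899. Other genes named for these cells were chosen after their values were seen. A further 5 cells were high in both genes and are counted as Fn1-high. Gpnmb stood at 90.9 in the 22 cells and 35.5 in the others, Fabp5 at 59.5 (57.7 to 61.4) and 19.4 (18.96 to 19.8), Lgals3 at 99.6 (97.2 to 102) and 32.5 (31.9 to 32.99) and Ctsd at 129 (126 to 131) and 87.1 (86.2 to 87.97). Atp6v0d2 stood at 9.81 (9.07 to 10.6) and 1.33 (1.22 to 1.44), the protease Ctsl at 36.4 and 6.57 and the membrane protease Adam8 at 12.5 (11.6 to 13.4) and 3.03 (2.87 to 3.2). H2-Aa was at 3.62 and 12.8 and Ccr2 at 0.335 and 4.44. Their median depth was the highest of the 3 sets, and its part in these differences was not tested.

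**Figure D3:**
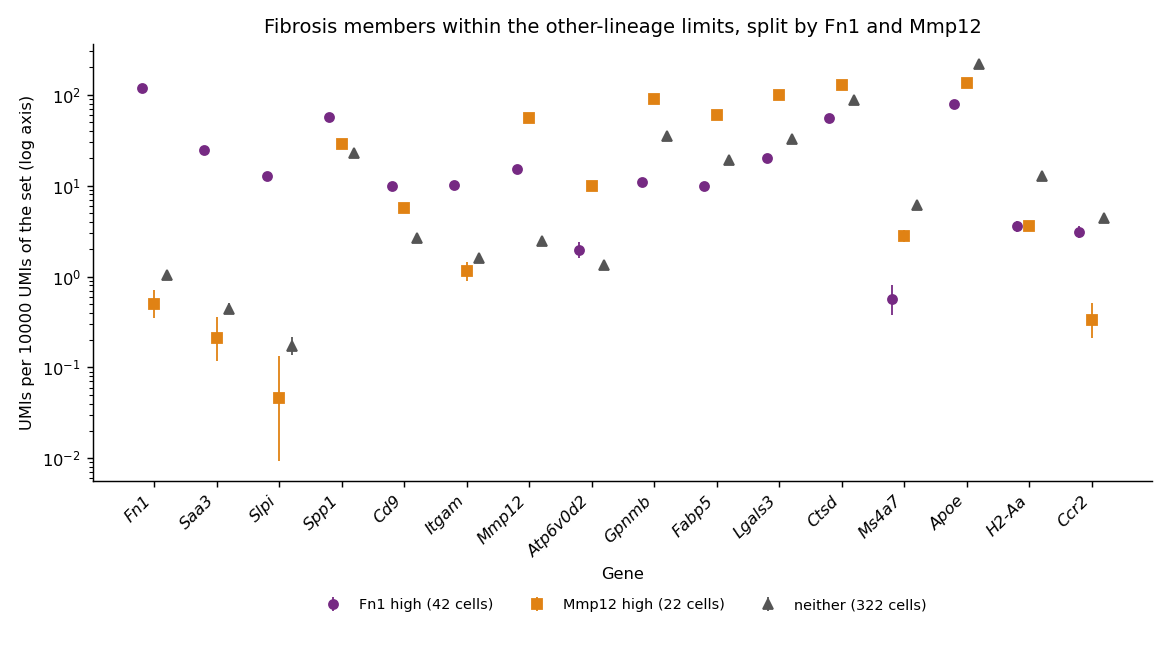
Levels of 16 genes in 42 Fn1-high, 22 Mmp12-high and 322 other fibrosis members within the limits, in UMIs per 10000 UMIs of the set on a log axis, with exact 95% Poisson intervals as bars. Fn1, Saa3 and Slpi lie highest in the Fn1-high set, Mmp12, Atp6v0d2, Gpnmb, Fabp5 and Lgals3 in the Mmp12-high set, and Ms4a7 and Apoe in the others.

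Of 11 genes of the matrix and fibrosis list over the minimum, Spp1, Fn1, Tnfsf12 and Thbs1 were at least 2 times above Kupffer cells in the 386 members, and Sdc3 (syndecan 3) was at 0.333 times. Thbs1, thrombospondin 1, which can activate TGF-beta, stood at 1.57 (1.47 to 1.67) against 0.456 (0.401 to 0.516), and Tnfsf12, the cytokine TWEAK, at 1.21 (1.12 to 1.31) against 0.48 (0.424 to 0.541). Tgfb1 stood at 3.38 (3.23 to 3.54) in the members, 2.45 (2.32 to 2.59) in Kupffer cells and 3.34 (2.67 to 4.12) in monocytes, and Igf1, a growth factor, at 4.45 (4.28 to 4.63), 5.6 (5.4 to 5.8) and 0.271 (0.109 to 0.559). Mmp12 stood at 9.84, 8.43 and 1.05. Within the members, Thbs1 was at 4.85 (4.25 to 5.5) in the Fn1-high, 0.183 (0.0943 to 0.319) in the Mmp12-high and 1.41 (1.3 to 1.52) in the other cells. Fn1 was at 11.3 in the members and 3.42 in Kupffer cells, but the 42 Fn1-high cells held 5890 of its 6388 UMIs, and the 322 members high in neither gene had a median of 0.474 per 10000.

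Between the mice, members were few in the normal liver, and the 15 within the limits give wide intervals. Across genes, 200 of 2251 (8.88%) were at least 2 times higher and 266 (11.8%) at most 0.5 times in fibrosis than in normal members within the limits, with a median of 0.93. For all members the shares were 10.7% and 9.93%. Of the 18 scar-associated genes, 13 were higher and 1 (S100a4) was lower. Lgals3 stood at 16.6 (14.5 to 18.995) in normal and 39.2 (38.7 to 39.7) in fibrosis members, Fabp5 at 2.08 (1.37 to 3.02) and 23.2 (22.8 to 23.6), and Ctsd at 14.6 (12.6 to 16.9) and 89.1 (88.3 to 89.9). Over all members, the Lgals3 ratio of fibrosis to normal was 2.08, and it was under the 2 times of a call with a minimum of 4 or 5 UMIs (1.60 and 1.29). Its direction turned under the 2 forms of the rule that left under 5 normal members, to 0.650 when a UMI of both genes was required and 0.864 on thinned cells, as it did for Spp1 and Cd63. The Ctsd ratio over all members was 4.90, and under the same 2 forms it was 1.39 and 1.92, which ended the call. Per cell, Ctsd had a median of 3.24 per 10000 in the 15 normal and 73.1 in the 386 fibrosis members. The highest normal cell held 77.1, so the ranges overlap.

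Spp1 in normal members rested on 1 cell. Of the 121 Spp1 UMIs in the 15 cells, 106 came from the only Fn1-high normal member, which held 118 per 10000, and the other 14 cells stood at 1.24. The pooled normal level of 9.31 (7.73 to 11.1) was thus not shared by the group.

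MHC class II was lower in fibrosis when all members were summed. Of 11 antigen presentation genes over the minimum, 8 were at most 0.5 times the normal level, where 11.8% of all genes were. Of the same 11, 0 were higher, and the median was 0.34. The median in all members was 0.24, with the same count of 8. H2-Aa stood at 27.9 (25.1 to 30.96) in normal and 10.9 (10.6 to 11.2) in fibrosis members, and Cd74, the class II chaperone, at 75.8 (71.1 to 80.7) and 21.5 (21.2 to 21.9). The 14 normal members high in neither Fn1 nor Mmp12 held 29.3 (26.4 to 32.6) of H2-Aa. They ranged from 1.94 to 23.7 per 10000 of Trem2 and Gpnmb, with a median of 5.28. The 59 fibrosis members from 4 to 8 of both genes held 30.5 (28.99 to 32.01) of H2-Aa, or 44.7 without the Fn1-high cells. These sets were not matched cell by cell, and the part of the Trem2 and Gpnmb level in the class II difference was not tested. With a mitochondrial limit of 5%, which left 7 normal members, the H2-Aa ratio over all members was 0.782 in place of 0.248. Of 7 cell cycle genes, 6 were at most 0.5 times. At least 20 cell cycle UMIs per 10000 were found in 4 of 19 normal (21.1%, 6.05 to 45.6) and 24 of 563 fibrosis members (4.26%, 2.75 to 6.28), and the 4 normal cells all lay within the limits.

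Kupffer cells as a sum were also higher in fibrosis for most of the scar-associated genes. Of 2097 genes, 106 (5.05%) were at least 2 times higher and 110 (5.25%) at most 0.5 times in fibrosis than in normal Kupffer cells, and 12 of 16 scar-associated genes were higher, with a median of 3.65 where that of all genes was 1.09. Fabp5 stood at 0.449 (0.37 to 0.54) in normal and 7.23 (7.01 to 7.46) in fibrosis Kupffer cells, Ctsd at 14.4 (13.9 to 14.9) and 57.2 (56.6 to 57.8), and H2-Aa at 13.7 (13.3 to 14.2) and 4.97 (4.79 to 5.16). These are summed levels, and 64 of the 636 fibrosis Kupffer cells held 87.2% of the Fabp5 UMIs, with a median cell at 0.948 per 10000 and 268 cells at 0, while 318 of 402 normal cells were at 0. The summed level of Spp1 was 5.39 (5.11 to 5.68) in normal and 4.92 (4.73 to 5.11) in fibrosis Kupffer cells, but 40 normal cells held 91.6% of the normal UMIs. By cell, the Spp1 median was 0 and 1.42, and on thinned cells a UMI was found in 15.7% (11.95 to 20.2) and 32.4% (28.03 to 36.9). Thinned lymphoid cells had one in 18.8% (16.05 to 21.9) in normal and 34.8% (28.3 to 41.6) in fibrosis. The Kupffer shares were thus at the background in both libraries. The members and Kupffer cells come from the same 2 libraries, and Gpnmb UMIs were in 41.9% of fibrosis and 1.07% of normal lymphoid cells, and the part of RNA from other cells in the Kupffer values was not tested.

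**Figure D4:**
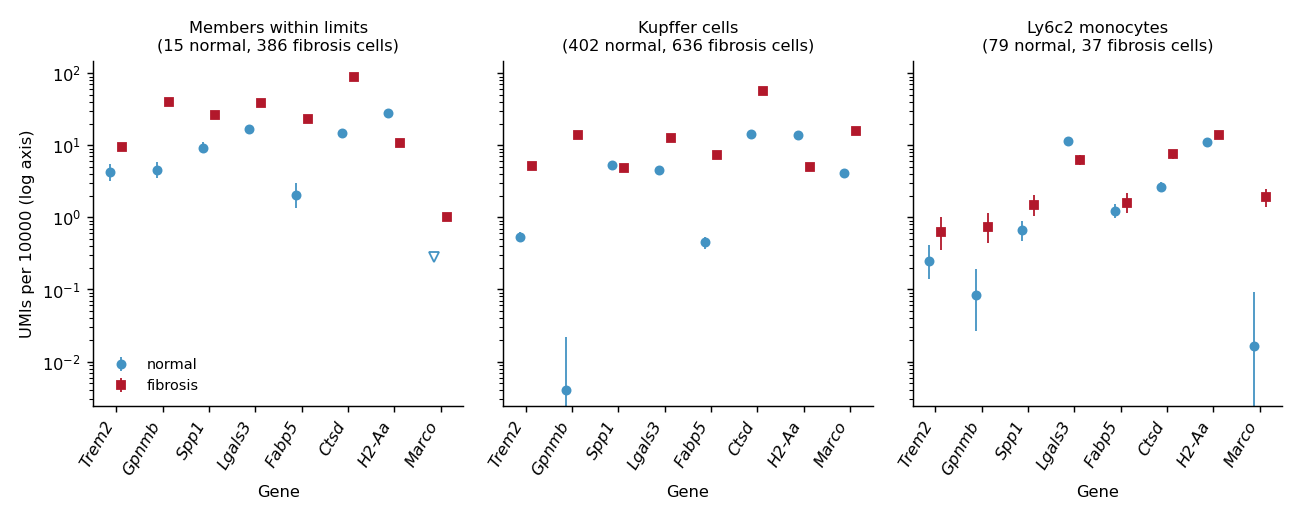
Levels of 8 genes in normal and fibrosis cells, in UMIs per 10000 on a log axis, for members within the limits (15 and 386 cells), Kupffer cells (402 and 636) and Ly6c2 monocytes (79 and 37), with exact 95% Poisson intervals as bars and an open triangle at the upper limit where no UMI was seen. Fabp5 and Ctsd lie higher and H2-Aa lower in fibrosis in the members and the Kupffer cells.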

How the data were processed

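Single-cell RNA-seq (10x 3′ v3) of liver NPCs from 1 normal and 1 fibrosis mouse was analysed. The authors aligned reads to mm10 with Cell Ranger 3.0.1 and deposited raw UMI counts per gene and cell for each library. Their methods name Scrublet for leaving out doublets but do not say whether this came before deposit. No doublet caller was run here, and limits on RNA of other lineages were used instead. Groups came from the labels.

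Counts were summed over the cells of a group and divided by the UMIs of that group (UMIs per 10000), with exact Poisson intervals for levels, exact conditional intervals for ratios and exact binomial (Clopper-Pearson) intervals for shares, all at 95% and covering counting error only. A gene was called different at 2 times or more, where one of the groups had 1 UMI per 10000 or more. Total UMIs were 44062632 and 53288463, with medians of 4144.5 and 5619 per cell. Named genes were the genes of the rule and the lists, and the 10 furthest above and below Kupffer cells and Ly6c2 monocytes, without mitochondrial, ribosomal, haemoglobin, immunoglobulin and rule genes. Others are said to be chosen later, and some items are not reported here. Members and lists were chosen with earlier results of these data known. The limits for other lineages were 20 UMIs per 10000 for LSEC, mesenchymal, neutrophil, T, NK and B cell lists, 3 for cholangiocyte and mesothelial and 200 for hepatocyte lists. For shares, cells were thinned once to 2000 UMIs. Promoters were RefSeq windows (GRCm38.p6) and gene positions are from GENCODE on GRCm38. On Poisson counts simulated from summed levels for members over Kupffer cells (1924 genes, 200 changed 4 times), 200 changed and 0 unchanged genes were called. These counts held no variation between cells and only changes well past the 2 times of a call. They check the calculation alone and give no measure of how reliable the calls are. Python 3.11.15, numpy 2.4.6, scipy 1.17.1, pandas 2.3.3 and matplotlib 3.10.9 were used. Alternatives changed the rule, the quality limit, the scaling, the gene minimum and the fold.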

Additional observations from a re-analysis of the deposited data

Results flagged for a closer look

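Some genes moved in opposite directions between the mice in the members and in another group. These differences between groups were not tested, since each condition is 1 mouse. Gas6, a bridging ligand for dying cells, was at 16.8 times in the members and 0.485 times in the monocytes. Mki67, a gene of dividing cells, was at 0.211 times in the members and 3.88 times in the monocytes, with 15 normal members and 37 fibrosis monocytes behind these values.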

How the results depend on the processing

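No paired analysis was possible because each condition had 1 library, and for the same reason no replicate could be left out. As reported, the members had a share of members of 9.18% in fibrosis and 0.254% in normal, with 50 genes higher and 97 lower against Kupffer cells, 169 and 260 against Ly6c2 monocytes, and 242 and 225 in fibrosis over normal members.

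The shares followed the rule, in the order fibrosis and normal. They were 12.6% and 0.442% with a minimum of 2 UMIs, 7.45% and 0.134% with 4 (added after the data were seen), 6.65% and 0.0937% with 5, 8.09% and 0.0402% with a UMI of both genes, 4.53% and 0.0652% on thinned cells, and 4.88% and 0% with every list of other lineages held to 20 per 10000, which left no normal member and so no value between the mice. The fibrosis share alone moved to 10.7% with a minimum of 3 per 10000, 8.19% with a Kupffer limit of 10 and 6.29% within the limits for other lineages used above, which were added after the data were seen.

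Counts of genes against Kupffer cells moved to 92 higher with a minimum of 2 UMIs, 31 and 93 higher with Kupffer limits of 10 and 40, 87 higher and 156 lower with a mitochondrial limit of 5%, 158 lower on thinned cells, 156 lower at a gene minimum of 0.5, 26 and 50 at 2, 20 and 47 at a fold of 3, 94 higher with the lymphoid level subtracted, 103 higher with stricter Kupffer cells, and 84 and 174 within the limits for other lineages. Against monocytes they moved to 263 and 433 with a mitochondrial limit of 5%, 524 lower on thinned cells, 256 and 455 with the lists at 20, 307 and 525 at a gene minimum of 0.5, 99 and 122 at 2, 78 and 86 at a fold of 3, 428 lower within the limits, and 418 lower with the limits on the comparison groups too. Between the mice they moved to 457 and 588 with a UMI of both genes (3 normal members), 496 lower with a mitochondrial limit of 5%, 401 lower on thinned cells, 528 and 430 at a gene minimum of 0.5, 113 and 92 at 2, 112 and 107 at a fold of 3, and 124 higher with the lymphoid level subtracted. With mean UMIs per cell in place of UMIs per 10000 they were 600 and 36 against Kupffer cells, 1086 and 48 against monocytes and 873 and 88 between the mice, where median depth was 12617 UMIs in the members, 6781 in Kupffer cells and 6387 in monocytes.

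Directions turned under both rules that left under 5 normal members. Fibrosis over normal was 0.659 for Spp1, 0.650 for Lgals3 and 0.571 for Cd63 with a UMI of both genes, and 0.712, 0.864 and 0.773 on thinned cells (4 normal members). The cause of these changes was not tested. RNA of other cells limits any level near that of the lymphoid cells.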

Other observations

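Other gene groups of the 386 fibrosis members within the limits are given as values. Among the cytokine and alarm genes, Cd14 (the co-receptor for bacterial lipopolysaccharide) and Chil3 (a chitinase-like secreted protein) were at least 2 times above Kupffer cells, though Cd14 was not in all 563 members (1.82 times) or against the 302 Kupffer cells within the limits. Cd14 stood at 2.46 (2.33 to 2.59) UMIs per 10000 against 1.19 (1.1 to 1.28) in Kupffer cells, and Chil3 at 1.66 (1.55 to 1.77) against 0.254 (0.213 to 0.299) and 11.8 (10.5 to 13.2) in monocytes. Il1b, the gene of interleukin 1 beta, stood at 4.46 (3.39 to 5.77) in normal and 0.725 (0.657 to 0.799) in fibrosis members, and Tnf at 1.08 (0.589 to 1.81) and 0.493 (0.437 to 0.554). Of 13 transcription factors, 0 were at least 2 times above Kupffer cells and 3 (Klf2, Nr1h3 and Spic) were at most 0.5 times, of which Klf2 was not in all 563 members (0.766 times). Spic, a factor of iron-recycling macrophages, stood at 0.53 (0.472 to 0.594) against 1.54 (1.44 to 1.65). Mitf, which can drive Gpnmb, stood at 0.796 (0.724 to 0.873) against 0.54 (0.48 to 0.605) in Kupffer cells and 0.349 (0.16 to 0.663) in monocytes. Of 9 glycolysis and hypoxia genes, only Eno1 (enolase) was at least 2 times above Kupffer cells, at 1.45 (1.36 to 1.56) against 0.651 (0.585 to 0.722), and in all 563 members or against the 302 Kupffer cells 0 of 9 were.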
